A study of Mus musculus with 6 samples.

Results

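Tetraspanins are small membrane proteins that bind one another and, side by side in the membrane, bind integrins, immunoglobulin-like proteins and membrane proteases, and so gather them into microdomains and into secreted vesicles. Several are known from pancreatic cancer: TSPAN8 forms complexes with EpCAM and claudin-7 in rat carcinoma cells, and CD82 is known in human carcinomas as a suppressor of metastasis. The genes described here are those whose mouse symbol is Tspan followed by a number, together with Cd9, Cd37, Cd53, Cd63, Cd81, Cd82, Cd151, Upk1a and Upk1b. That rule took 29 of the 25978 genes in the deposited table, and it used no measured value.

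The RNA came from sorted YFP-positive cells of primary pancreatic tumours, in 3 EpCAM- libraries and 3 EpCAM+ libraries described as biological replicates. All 6 libraries are from KPCY mice on a C57BL/6 background aged 5 to 7 weeks. The alleles of these mice include Pdx1-Cre, a Trp53 gene flanked by loxP sites (Trp53fl/fl) and a YFP reporter at the Rosa26 locus (Rosa26LSL-YFP). Both sorted populations therefore carry the same mouse genotype label, and they differ in the surface EpCAM used for the sort, an adhesion protein of epithelial cells. Pdx1-Cre acts in pancreatic progenitors, so normal acinar, duct and islet cells can also carry YFP. The labels do not say whether tumours were pooled, or whether libraries with the same number came from the same tumour. The comparison asks which genes differ between tumour-derived cells with and without surface EpCAM.

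The values are log2 levels normalised between libraries by the authors, so sequencing depth is unknown. Where a gene has a value for each library, replicates 1, 2 and 3 of a group follow in that order. Epcam stood between 7.22 and 8.42 in EpCAM- libraries and between 14.89 and 15.06 in EpCAM+ libraries, as the sort labels say. Trp53 RNA was present in every library, at 6.93 to 7.46 on the log2 scale. Recombination of the Trp53 alleles in the sorted cells was not tested. Libraries of the same group correlated at r between 0.977 and 0.989 across the tested genes, and libraries of different groups at r between 0.854 and 0.883. Genes used as markers of other cell types also differed between the groups, and which cells made this RNA was not tested. The mean log2 level of 10 fibroblast markers was 10.61, 11.14 and 8.96 in EpCAM- libraries and 8.07, 5.80 and 6.11 in EpCAM+ libraries. The mean of 8 acinar markers was 4.99 to 5.21 in EpCAM- libraries and 10.63 to 11.44 in EpCAM+ libraries. In the test described below, 9 of 10 fibroblast markers rose and 1 fell, where 20.3% of all tested genes rose and 23.1% fell. Their summed back-transformed level was 17997 to 90898 in EpCAM- libraries and 1595 to 10590 in EpCAM+ libraries. Of the acinar markers 8 of 8 fell, against 23.1% of all tested genes. The fibroblast markers set EpCAM- replicate 3 and EpCAM+ replicate 1 apart from the rest of their groups. In bulk samples, fewer cells of a type and less RNA per cell cannot be told apart.

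Of the 29 tetraspanin genes, 25 were tested, since their level, taken off the log2 scale and averaged over libraries, reached 10. No tested member had a mean under that filter in either group. In limma, at a Benjamini-Hochberg adjusted p under 0.05 over all 15783 tested genes, 14 of the 25 differed between EpCAM- and EpCAM+ libraries (56%), where 43.4% of all tested genes did. In EpCAM- cells 6 members were higher (24%, against 20.3% of all tested genes) and 8 were lower (32%, against 23.1%). The 6 were Tspan11, Cd53, Tspan5, Tspan4, Cd63 and Tspan3, and the 8 were Tspan1, Tspan13, Tspan33, Tspan8, Tspan12, Tspan7, Tspan14 and Cd81. A call with a log2 fold change of at least 1 in either direction was reached by 11 members (44%), against 23.9% of all tested genes. For 16 of the 25 (64%) every EpCAM- library lay on one side of every EpCAM+ library, as for 56.3% of all tested genes. The median log2 fold change, EpCAM- minus EpCAM+, was -0.05 over the members and 0.00 over all tested genes, and the median absolute log2 fold change was 0.82 over the members and 0.46 over all tested genes. Changes thus ran in both directions, with a median near that of all genes. Of 41 tested genes from a list of tetraspanin partners, 9 rose (22%), 16 fell (39%) and 16 did not pass. The background for each list counted below is the same, 20.3% of all tested genes higher and 23.1% lower.

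**Figure D1:**
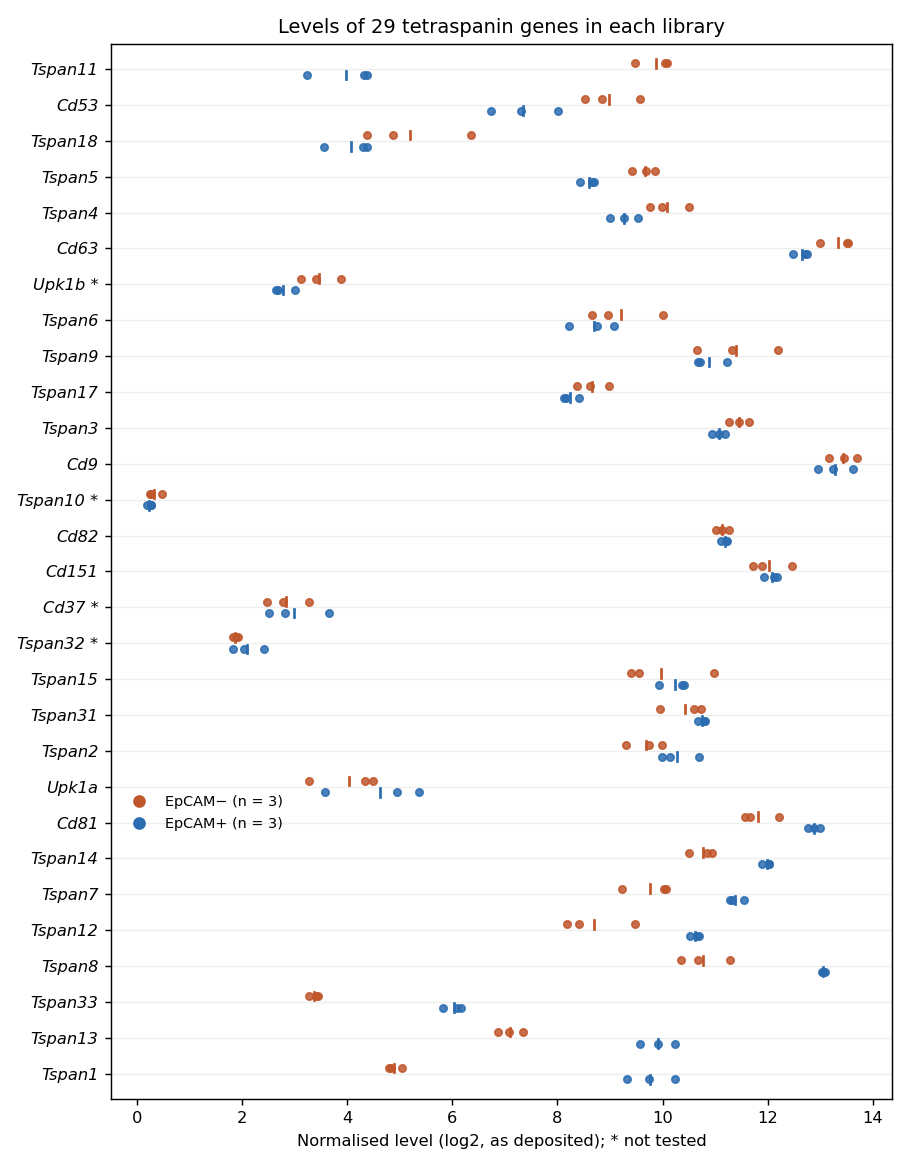
Normalised log2 level (horizontal axis) of each of the 29 tetraspanin genes (rows, ordered by the difference of group means) in the 3 EpCAM- libraries (orange, upper points of each row) and the 3 EpCAM+ libraries (blue, lower points). Vertical bars are group means and asterisks mark the 4 genes that were not tested; Tspan11 at the top and Tspan1 at the bottom have the widest gaps between groups, at 5.90 and -4.88 log2 units.

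**Figure D2:**
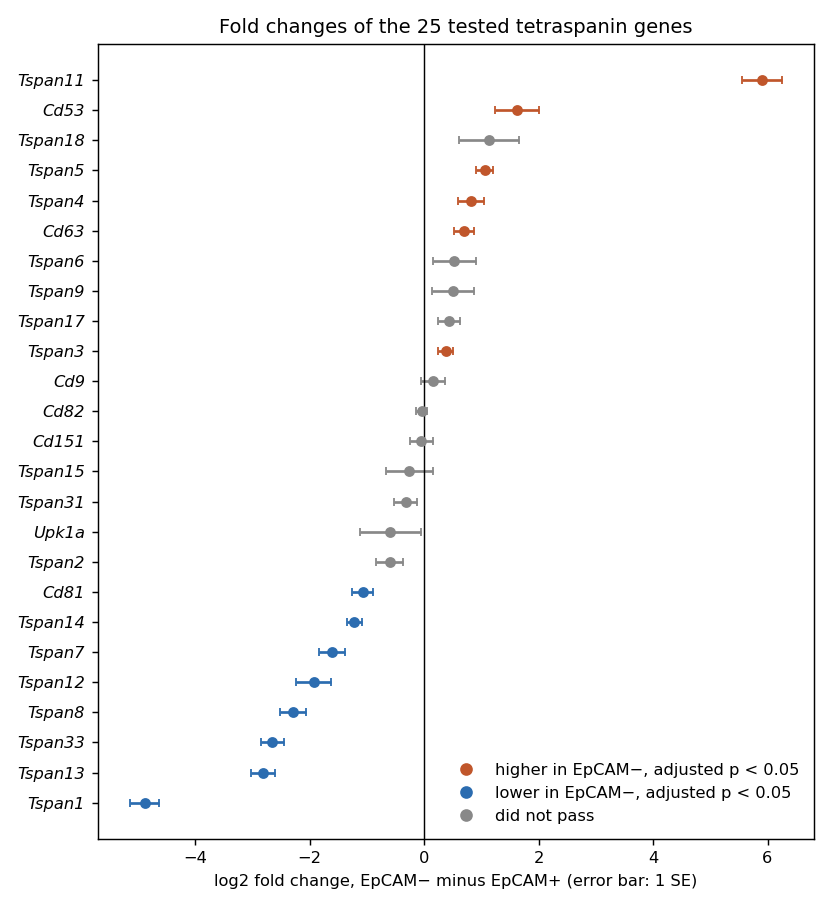
Log2 fold change, EpCAM- minus EpCAM+ (horizontal axis), with 1 standard error for the 25 tested tetraspanin genes. Orange marks the 6 genes higher in EpCAM- cells, blue the 8 lower genes, both at a limma adjusted p under 0.05, and grey the 11 that did not pass.

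The widest differences were carried by Tspan11 in one direction and Tspan1 in the other. Their promoter windows are shown for that reason, and that of Tspan8 because it is the known partner of EpCAM, the protein sorted on. Each window runs from 250 bases before to 50 bases after the start that RefSeq gives on GRCm38.p6, 5′ to 3′ on the strand of the gene. RefSeq and GENCODE starts can differ, and the Tspan8 window lies inside the GENCODE gene, which starts at 115816832. Capitals mark each match to CAGGTG or to its reverse complement CACCTG, the E-box that Snail and Zeb factors are known to bind.
Tspan11 (chr6:127887372-127887671, plus strand): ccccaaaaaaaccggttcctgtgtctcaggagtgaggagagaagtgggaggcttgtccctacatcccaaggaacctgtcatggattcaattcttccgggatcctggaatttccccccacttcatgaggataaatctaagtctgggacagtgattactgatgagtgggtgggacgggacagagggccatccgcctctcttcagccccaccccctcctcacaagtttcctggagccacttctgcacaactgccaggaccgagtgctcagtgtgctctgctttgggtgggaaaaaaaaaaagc
Tspan1 (chr4:116167549-116167848, minus strand): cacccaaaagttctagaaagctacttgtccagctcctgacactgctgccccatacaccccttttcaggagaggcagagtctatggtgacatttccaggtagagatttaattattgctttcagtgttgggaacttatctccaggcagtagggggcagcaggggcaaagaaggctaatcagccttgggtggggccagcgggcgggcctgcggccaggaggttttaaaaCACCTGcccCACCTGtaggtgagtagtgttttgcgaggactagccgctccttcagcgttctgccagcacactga
Tspan8 (chr10:115817034-115817333, plus strand): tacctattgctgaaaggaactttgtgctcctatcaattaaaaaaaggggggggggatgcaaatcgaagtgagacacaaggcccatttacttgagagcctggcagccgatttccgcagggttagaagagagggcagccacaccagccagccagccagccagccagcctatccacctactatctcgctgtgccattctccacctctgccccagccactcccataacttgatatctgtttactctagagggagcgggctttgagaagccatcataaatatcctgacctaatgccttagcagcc

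The Tspan1 window held 2 matches, whose first bases lie 24 and 15 bases before the RefSeq start, and the Tspan11 and Tspan8 windows held none. Windows were found for 27 of the 29 members, 37 windows in all, since some genes have several starts. On both strands, CAGGTG was present in 10 of these 37 windows (27%), against 20.2% of all 32851 windows in the table. By gene, it was present in 1 of the 6 higher members (Tspan4) and in 2 of the 8 lower members (Tspan1 and Tspan33). Among members with a window it was also present in 4 of the 10 that did not pass and 1 of the 3 not tested. A gene counted if any of its windows matched, so the share of all windows is no background for these gene counts. The GC box GGGCGG was present in 16 of the 37 windows (43.2%, against 35.7% of all windows), and TATAAA in 2 (5.41%, against 13.6%). The median GC content was 57.7% over the windows of members and 52.7% over all windows. CAGGTG and GGGCGG can share an end base. A match describes letters in the window and not a bound site.

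Tspan11 (ENSMUSG00000030351, GRCm38 chromosome 6, 127887589 to 127953977) was the member that rose most. Its log2 level was 9.48, 10.05 and 10.08 in EpCAM- libraries, against 4.37, 3.23 and 4.31 in EpCAM+ libraries. The groups lay far apart, with no overlap. The log2 fold change was 5.90 ± 0.35 (SE; limma adjusted p = 2.64e-05), about 59.8-fold. Its size depends on the low EpCAM+ values, and with a pseudocount of 5 it was 5.49. Fibroblast markers also rose in EpCAM- cells. Within EpCAM- they were lowest in replicate 3, where Tspan11 was 10.08 against 10.05 in replicate 2, and within EpCAM+ both were highest in replicate 1. Their part in the difference was not tested. Without EpCAM- replicate 3 and EpCAM+ replicate 1 the Tspan11 fold change was 5.99 (adjusted p = 0.000569). The fibroblast means left in that fit were 10.61 and 11.14 in EpCAM- libraries against 5.80 and 6.11 in EpCAM+ libraries. The fit thus widens the marker difference and cannot separate Tspan11 from these markers.

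Tspan1 (ENSMUSG00000028699, chromosome 4, 116161869 to 116167601), reported as abundant in several human carcinomas, went the other way. It stood at 5.04, 4.84 and 4.80 in EpCAM- libraries and at 9.74, 9.33 and 10.23 in EpCAM+ libraries, with no overlap. The log2 fold change was -4.88 ± 0.25 (SE; adjusted p = 1.42e-05), a 29.4-fold lower level in EpCAM- cells. Tspan13 (chromosome 12, 36014557 to 36042500), reported to bind neuronal calcium channels, had 7.08, 6.86 and 7.34 in EpCAM- libraries against 9.91, 9.58 and 10.24 in EpCAM+ libraries, with no overlap. It fell by 2.81 on the log2 scale (SE 0.21; adjusted p = 7.32e-05). Tspan7 (chromosome X, 10485158 to 10596605), a gene of X-linked intellectual disability in humans and an islet autoantigen in human diabetes, had 10.03, 10.06 and 9.22 in EpCAM- libraries against 11.55, 11.33 and 11.28 in EpCAM+ libraries. The groups were again separate, and the log2 fold change was -1.61 ± 0.23 (SE; adjusted p = 0.00155). Acinar markers moved in the same direction as Tspan1, Tspan13 and Tspan7. So did 8 of 8 epithelial markers, Epcam among them, with means of 9.37 to 9.90 in EpCAM- and 14.60 to 14.62 in EpCAM+ libraries. Within EpCAM+, acinar markers, Tspan1 and Tspan13 were lowest in replicate 2 and highest in replicate 3, where Tspan7 was lowest. Within EpCAM-, acinar markers were lowest in replicate 1, where Tspan1 was highest, and highest in replicate 2, where Tspan13 was lowest. The part of either list in these differences was not tested.

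Tspan12 (chromosome 6, 21771395 to 21852515) binds the Wnt receptor Frizzled-4 and raises its response to the ligand Norrin. Its log2 level was 8.41, 8.19 and 9.47 in EpCAM- libraries and 10.66, 10.53 and 10.69 in EpCAM+ libraries. EpCAM- replicate 3 was the highest of its group and still below every EpCAM+ library, and the log2 fold change was -1.93 ± 0.31 (SE; adjusted p = 0.00263). Of the 4 other genes of that receptor complex, 1 rose (25%, against 20.3% of all tested genes) and 2 fell (50%, against 23.1%). The receptor gene Fzd4 fell by 1.41 (SE 0.21; adjusted p = 0.00162) and the co-receptor gene Lrp5 by 0.83 (SE 0.14; adjusted p = 0.00273) on the log2 scale. The ligand gene Ndp rose by 1.72 ± 0.31 (SE; adjusted p = 0.00435), and Lrp6 did not pass, at -0.12 (adjusted p = 0.692).

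Tspan8 (ENSMUSG00000034127, chromosome 10, 115816832 to 115849893) fell as well. It stood at 10.67, 10.36 and 11.28 in EpCAM- libraries and at 13.03, 13.06 and 13.10 in EpCAM+ libraries. The EpCAM+ libraries lay within 0.1 log2 units of each other, while the EpCAM- libraries spread over nearly 1 unit below them. The log2 fold change was -2.29 ± 0.22 (SE; adjusted p = 0.000234), 4.91-fold lower in EpCAM- cells. Its known partners in that complex were unequal. Cldn7, which encodes claudin-7, stood at 5.66 to 6.31 in EpCAM- libraries and at 12.40 to 12.50 in EpCAM+ libraries and fell by 6.50 (SE 0.18; adjusted p = 5.4e-06). Epcam itself, whose protein was sorted on, fell by 7.00 on the log2 scale. Cd44, a hyaluronan receptor, had 15.45 to 15.65 in EpCAM- libraries against 15.42 to 15.63 in EpCAM+ libraries, and it did not pass, at 0.04 ± 0.17 (SE; adjusted p = 0.860). The Tspan8 difference was thus smaller on the log2 scale than those of Epcam and Cldn7, a description with no test of the difference between genes.

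**Figure D3:**
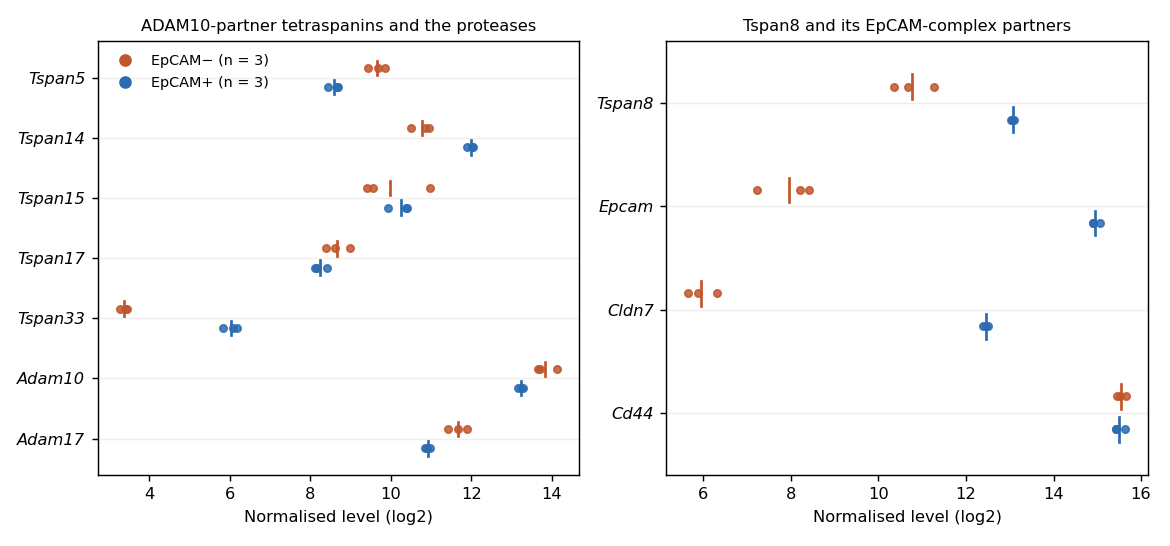
Normalised log2 level (horizontal axis) in the 3 EpCAM- libraries (orange, upper points of each row) and the 3 EpCAM+ libraries (blue, lower points), with vertical bars for group means. The left panel holds the tested ADAM10-partner tetraspanins with Adam10 and Adam17, and the right panel Tspan8 with Epcam, Cldn7 and Cd44; Epcam, Cldn7 and Tspan8 are separated by group and Cd44 overlaps.

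The tetraspanins that bind integrins and immunoglobulin-like proteins form the core of these microdomains. Of 6 tested members, 1 rose (Tspan4, 16.7%, against 20.3% of all tested genes), 2 fell (Tspan8 and Cd81, 33.3%, against 23.1%) and 3 did not pass. Cd81 (chromosome 7, 143052739 to 143067934), a partner of EWI-2, had 12.21, 11.56 and 11.66 in EpCAM- libraries against 12.99, 12.77 and 12.88 in EpCAM+ libraries. The groups did not overlap, and the log2 fold change was -1.07 ± 0.18 (SE; adjusted p = 0.00334). Cd9 (chromosome 6, 125460266 to 125494791), known for its need in sperm-egg fusion, had 13.70, 13.17 and 13.46 in EpCAM- libraries against 13.25, 13.63 and 12.96 in EpCAM+ libraries. These ranges overlap, and it did not pass, at 0.16 ± 0.21 (SE; adjusted p = 0.577). Cd151 (chromosome 7, 141467392 to 141471473), the partner of laminin-binding integrins, had 12.47, 11.89 and 11.72 in EpCAM- libraries against 12.12, 12.17 and 11.94 in EpCAM+ libraries. Its log2 fold change was -0.05 ± 0.20 (SE; adjusted p = 0.850). Cd82 was at 11.02 to 11.27 in EpCAM- libraries and at 11.12 to 11.23 in EpCAM+ libraries and did not pass either (-0.04 ± 0.10, SE; adjusted p = 0.756). Of 3 tested partners of CD81, 0 rose and 1 fell (Adgrg1, at -0.85), and of 4 growth factors and receptors with known tetraspanin partners, 0 rose and 1 fell (Tgfa, at -1.29). The falling shares were 33.3% and 25%, against 23.1% of all tested genes.

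Tspan4, which is known for the formation of migrasomes, vesicles that migrating cells leave behind, had 10.51, 9.99 and 9.77 in EpCAM- libraries against 9.0, 9.53 and 9.27 in EpCAM+ libraries. The log2 fold change was 0.82 ± 0.22 (SE; adjusted p = 0.0217), and the gene no longer passed without EpCAM+ replicate 1 (adjusted p = 0.0709) or EpCAM+ replicate 3 (adjusted p = 0.0683). Of the 5 laminin-binding integrin genes, 2 rose (40%, against 20.3% of all tested genes), 0 fell (against 23.1%) and 3 did not pass. The beta chain Itgb1 rose by 0.63 ± 0.18 (SE; adjusted p = 0.0302), a call that held in only 2 of the 6 fits that leave out 1 library. The alpha chain genes Itga3 (-0.74, adjusted p = 0.117) and Itga6 (0.16, adjusted p = 0.669) and the beta chain gene Itgb4 (-0.29, adjusted p = 0.294) did not pass. Without EpCAM- replicate 1 Itga3 passed, at -1.11 (adjusted p = 0.00903), as it did with array weights, at -0.87 (adjusted p = 0.0284), and without EpCAM- replicate 2 it was -0.47 (adjusted p = 0.30). Of 3 immunoglobulin partners, 1 rose, 1 fell and Igsf3 did not pass (-0.24, adjusted p = 0.408). Igsf8, which encodes EWI-2, fell by 0.58 on the log2 scale (SE 0.092; adjusted p = 0.00230), and Ptgfrn rose by 0.47 ± 0.14 (SE; adjusted p = 0.0353). The Ptgfrn call was lost without any single library other than EpCAM- replicate 3, at adjusted p up to 0.117.

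A subfamily known as TspanC8, named for the cysteines of its large loop, carries the protease ADAM10 out of the endoplasmic reticulum and steers it to different substrates. Of its 6 genes 5 were tested, of which 1 rose (20%, against 20.3% of all tested genes), 2 fell (40%, against 23.1%) and 2 did not pass. Tspan5 (chromosome 3, 138742195 to 138907905) rose. Its log2 level was 9.42, 9.69 and 9.86 in EpCAM- libraries against 8.69, 8.43 and 8.66 in EpCAM+ libraries, with no overlap and a fold change of 1.06 ± 0.15 (SE; adjusted p = 0.00148). Tspan14 (chromosome 14, 40906445 to 40966807) had 10.95, 10.51 and 10.84 in EpCAM- libraries against 12.02, 12.03 and 11.90 in EpCAM+ libraries. It fell by 1.22 (SE 0.13; adjusted p = 0.000419), again with no overlap. Tspan33 (chromosome 6, 29694222 to 29718559) was far less abundant, at 3.40, 3.27 and 3.44 in EpCAM- libraries against 6.08, 6.17 and 5.82 in EpCAM+ libraries. It fell by 2.65 (SE 0.20; adjusted p = 6.92e-05).

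Tspan15 and Tspan17 did not pass. Tspan15 stood at 10.98, 9.40 and 9.56 in EpCAM- libraries and at 10.37, 9.94 and 10.41 in EpCAM+ libraries. EpCAM- replicate 1 was the highest of all 6 libraries and the other two EpCAM- libraries the lowest, so the fold change of -0.26 ± 0.41 (SE; adjusted p = 0.640) rests on 1 library. Without EpCAM- replicate 1 it was -0.76 (adjusted p = 0.0139). Tspan17 had 8.38 to 8.99 in EpCAM- libraries and 8.12 to 8.41 in EpCAM+ libraries (0.43 ± 0.19, SE; adjusted p = 0.106), and it passed after quantile normalisation, at 0.60 (adjusted p = 0.0260). Tspan10 was near the floor of the table, between 0.18 and 0.47 in all libraries, and was not tested.

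Of the 10 listed genes for ADAM10, ADAM17 and their substrates, 4 rose (40%, against 20.3% of all tested genes), 4 fell (40%, against 23.1%) and 2 did not pass. Adam10 had 13.64, 13.70 and 14.13 in EpCAM- libraries against 13.28, 13.22 and 13.16 in EpCAM+ libraries and rose by 0.60 ± 0.16 (SE; adjusted p = 0.0187). That call was lost without EpCAM+ replicate 2 (adjusted p = 0.0563) or replicate 3 (adjusted p = 0.0693). The related protease gene Adam17 rose by 0.75 ± 0.13 (SE; adjusted p = 0.00386). Among the substrates, N-cadherin (Cdh2) rose by 2.06 ± 0.24 (SE; adjusted p = 0.000556) and Notch2 by 1.12 ± 0.22 (SE; adjusted p = 0.00589), and E-cadherin (Cdh1) fell by 3.77 (SE 0.62; adjusted p = 0.00286). Cx3cl1 (-1.67, adjusted p = 0.000136), Notch3 (-1.18, adjusted p = 0.0186) and Notch4 (-0.97, adjusted p = 0.0215) fell as well. In these libraries Tspan5 and Adam10 were thus higher in EpCAM- cells, while Tspan14 and Tspan33 were lower.

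Cd63 (ENSMUSG00000025351, chromosome 10, 128900989 to 128912822) encodes the tetraspanin of late endosomes and lysosomes and is a common marker of exosomes. Its level was 13.52, 13.53 and 12.99 in EpCAM- libraries against 12.75, 12.49 and 12.71 in EpCAM+ libraries, with no overlap. The log2 fold change was 0.70 ± 0.18 (SE; adjusted p = 0.0169), and the call was lost without EpCAM- replicate 2 (adjusted p = 0.0505) or EpCAM+ replicate 2 (adjusted p = 0.0611). The annotated pseudogene Cd63-ps rose by 0.77 (adjusted p = 0.0326) at a level of 4.62 to 5.20 in EpCAM- libraries and 4.0 to 4.24 in EpCAM+ libraries, and the sources used here do not say how reads were shared between the copies. Of 7 genes of vesicle release, 0 rose, 5 fell (71.4%, against 23.1% of all tested genes) and 2 did not pass. Besides the Rab27 genes, those that fell were Tsg101 (-0.80, adjusted p = 0.0165) and syndecan genes, which encode cell-surface proteoglycans. Sdc4, a syndecan gene, fell by 0.45 (adjusted p = 0.0340). The GTPase genes Rab27a and Rab27b, whose products dock vesicles at the plasma membrane, fell by 3.17 (SE 0.24; adjusted p = 7.09e-05) and 1.36 (SE 0.27; adjusted p = 0.00586) on the log2 scale. Sdcbp (-0.06, adjusted p = 0.722), which encodes the CD63 partner syntenin, and Pdcd6ip (-0.13, adjusted p = 0.396), which encodes ALIX, did not pass.

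Of the 3 leukocyte tetraspanins only Cd53 was tested, and it rose while most leukocyte markers fell. Cd53 (ENSMUSG00000040747, chromosome 3, 106759921 to 106790149), known as a pan-leukocyte surface protein, had 8.85, 9.57 and 8.52 in EpCAM- libraries and 8.01, 6.74 and 7.30 in EpCAM+ libraries. The groups did not overlap, and the log2 fold change was 1.62 ± 0.38 (SE; adjusted p = 0.0130), 3.08-fold higher in EpCAM- cells. Without EpCAM- replicate 3 and EpCAM+ replicate 1 it was 2.19 (adjusted p = 0.00700). Those libraries held the lowest Cd53 of EpCAM- and the highest of EpCAM+, so leaving them out widens the difference. Of the 10 pan-leukocyte markers 9 were tested, of which 6 fell, 1 rose (Arhgdib, at 1.47) and 2 did not pass. Ptprc, which encodes CD45, stood at 4.71, 4.72 and 3.67 in EpCAM- libraries and at 7.63, 5.51 and 5.93 in EpCAM+ libraries (-1.99 ± 0.58, SE; adjusted p = 0.0298). The mean of the pan-leukocyte list was 4.39, 4.29 and 3.63 in EpCAM- libraries against 6.41, 4.77 and 5.34 in EpCAM+ libraries. The summed level of the list was 285 to 738 in EpCAM- libraries and 476 to 1574 in EpCAM+ libraries. Arhgdib, at 9.18, 8.13 and 7.60, was the highest of the list in every EpCAM- library and so weighs most in those sums. The mean of the macrophage list, of which 7 of 10 members fell and 0 rose, was 4.92 to 5.54 in EpCAM- libraries and 6.31 to 8.49 in EpCAM+ libraries. Its summed level was 708 to 873 in EpCAM- libraries and 1331 to 6439 in EpCAM+ libraries. Both marker lists were highest in EpCAM+ replicate 1, which also had the highest Cd53 of its group. Within both groups Cd53 had the same order of libraries as the macrophage mean and the fibroblast mean. The pan-leukocyte mean shared that order only in EpCAM+ libraries. Fibroblast means were also higher in EpCAM- libraries, as Cd53 was, at 10.61, 11.14 and 8.96 against 8.07, 5.80 and 6.11. The part of any of these lists in the Cd53 difference was not tested.

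Cd37, a tetraspanin of B cells, stood at 2.47 to 3.27 in EpCAM- libraries and at 2.51 to 3.65 in EpCAM+ libraries, and Tspan32, of blood cells, at 1.82 to 1.91 in EpCAM- libraries and at 1.82 to 2.42 in EpCAM+ libraries. Both were under the filter and were not tested, and both were highest in EpCAM+ replicate 1, as were the leukocyte and macrophage lists.

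**Figure D4:**
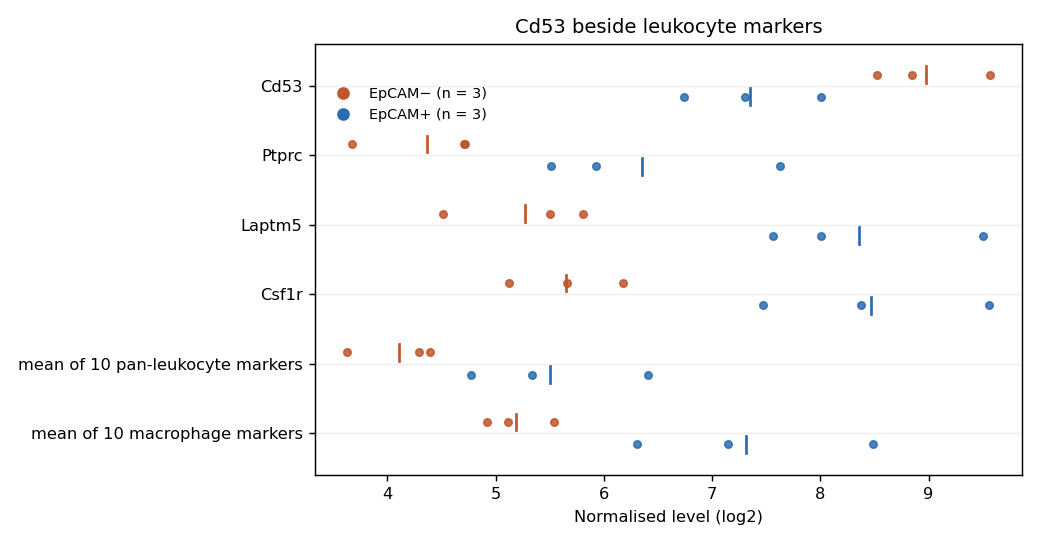
Normalised log2 level (horizontal axis) of Cd53 and of the leukocyte markers Ptprc, Laptm5 and Csf1r, and the mean log2 level of the 10 pan-leukocyte and the 10 macrophage markers, in the 3 EpCAM- libraries (orange, upper points) and the 3 EpCAM+ libraries (blue, lower points). Vertical bars are group means. Cd53 is higher in EpCAM- libraries, and the 3 markers and 2 list means drawn are higher in EpCAM+ libraries. Arhgdib of the pan-leukocyte list, not drawn singly, was higher in EpCAM- libraries (1.47).

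The uroplakins Upk1a and Upk1b, tetraspanins of the plaques of the bladder lining, were low. Upk1a had 3.27 to 4.49 in EpCAM- libraries against 3.58 to 5.36 in EpCAM+ libraries and did not pass (-0.59 ± 0.53, SE; adjusted p = 0.404). Upk1b was at 3.41, 3.88 and 3.11 in EpCAM- libraries and at 2.69, 2.64 and 3.01 in EpCAM+ libraries and was not tested. Their plaque partner Upk2 was between 0.22 and 0.46 in every library.

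Among the remaining members, Tspan3 rose by 0.38 ± 0.13 (SE; adjusted p = 0.0439), the least secure call of the family. It had 11.27 to 11.64 in EpCAM- libraries against 10.94 to 11.18 in EpCAM+ libraries, and the call was lost in 9 of 18 alternatives, among them every fit without 1 library other than EpCAM- replicate 3. Tspan2, a gene of myelinating glia, had 9.30 to 9.99 in EpCAM- libraries and 9.99 to 10.69 in EpCAM+ libraries, meeting at 9.99, and did not pass (-0.60 ± 0.24, SE; adjusted p = 0.0831). Tspan18, which is known from endothelial cells, had 4.38 to 6.36 in EpCAM- libraries and 3.56 to 4.37 in EpCAM+ libraries and did not pass (1.13 ± 0.52, SE; adjusted p = 0.123). Of the 4 tested endothelial markers, 1 rose (Kdr, by 1.20) and 0 fell. Tspan6 (0.53, adjusted p = 0.298), Tspan9 (0.51, adjusted p = 0.308) and Tspan31 (-0.32, adjusted p = 0.240) did not pass. Single libraries moved these values: Tspan6 was 0.13 and Tspan9 0.11 without EpCAM- replicate 2, Tspan31 was -0.084 without EpCAM- replicate 3, and Tspan18 was 0.55 without EpCAM- replicate 1. With each library left out in turn, Tspan6 ran between 0.13 and 0.80, Tspan9 between 0.11 and 0.88, Tspan31 between -0.47 and -0.084 and Tspan18 between 0.55 and 1.54, and none of the 4 passed. The exons of Tspan31 share 641 bases, 29.2% of their length, with Cdk4 on the opposite strand, whose log2 level was 11.79 to 12.57 in EpCAM- libraries and 12.33 to 12.52 in EpCAM+ libraries. The exons of Tspan4 share 292 bases (13.4%) with Chid1 on the opposite strand, which did not pass (-0.17, adjusted p = 0.453). The sources used here do not say whether reads were counted by strand, so the levels of Tspan31 and Tspan4 may include reads of these partners.

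Several members lie next to each other. Tspan11 and Tspan9 on chromosome 6 are 7.4 kb apart and face each other, with no protein-coding gene between, and Tspan11 rose by 5.90 log2 units while Tspan9 had 10.65 to 12.20 in EpCAM- libraries and 10.68 to 11.23 in EpCAM+ libraries. Cd151 and Tspan4 on chromosome 7 are 3.8 kb apart with Polr2l as the only protein-coding gene between them, and Cd151 did not pass while Tspan4 rose. Tspan32 and Cd81, 33.1 kb apart on the same chromosome, differ in level, since Tspan32 was under the filter and Cd81 among the most abundant members. Tspan18 and Cd82, 84.6 kb apart on chromosome 2, did not pass. No test of a difference between neighbours was made.

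To compare members with each other, levels were back-transformed and divided by the length of the merged exons. On this scale of log2 level per kb the order of the 6 highest means over all libraries was Cd9 (12.36), Tspan8 (11.58), Cd63 (11.17), Cd81 (10.93), Cd151 (10.62) and Tspan14 (10.10). With the longest transcript as length 5 of these 6 were again among the 6 highest. Their order changed, since Cd81 (11.77) then stood above Cd63 (11.52). By group the order differed: Tspan8 was rank 5 in EpCAM- cells and rank 1 in EpCAM+ cells, and Tspan14 was rank 7 in EpCAM- cells, where Cd82 was rank 6, and rank 6 in EpCAM+ cells. In EpCAM- cells Cd9 was the highest, at 12.13 to 12.67, and its lowest value lay above the highest of Cd63, at 11.11 to 11.65. In EpCAM+ cells Tspan8, at 12.27 to 12.34, and Cd9, at 11.93 to 12.60, overlapped, so their order there does not exceed the spread.

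The make-up of the summed tetraspanin level per kb, taken with merged exons only, shifted accordingly. Cd9 held 30.7% ± 3.67 of the sum in EpCAM- libraries and 21.6% ± 4.41 in EpCAM+ libraries (SD, n = 3 each). Cd63 held 16.0% ± 2.82 in EpCAM- libraries and 7.67% ± 0.891 in EpCAM+ libraries (SD, n = 3 each). Tspan8 held 6.05% ± 2.48 in EpCAM- libraries and 22.1% ± 1.34 in EpCAM+ libraries (SD, n = 3 each). The shares of Cd63 and Tspan8 did not overlap between the groups, and those of Cd9 lay between 26.6% and 33.6% in EpCAM- libraries and between 17.8% and 26.5% in EpCAM+ libraries, so that they nearly touched. As shares of 1 sum, a lower share of Tspan8 raises the others. Without length scaling, the 29 genes made up 0.174% to 0.217% of the back-transformed total in EpCAM- libraries and 0.218% to 0.234% in EpCAM+ libraries.

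**Figure D5:**
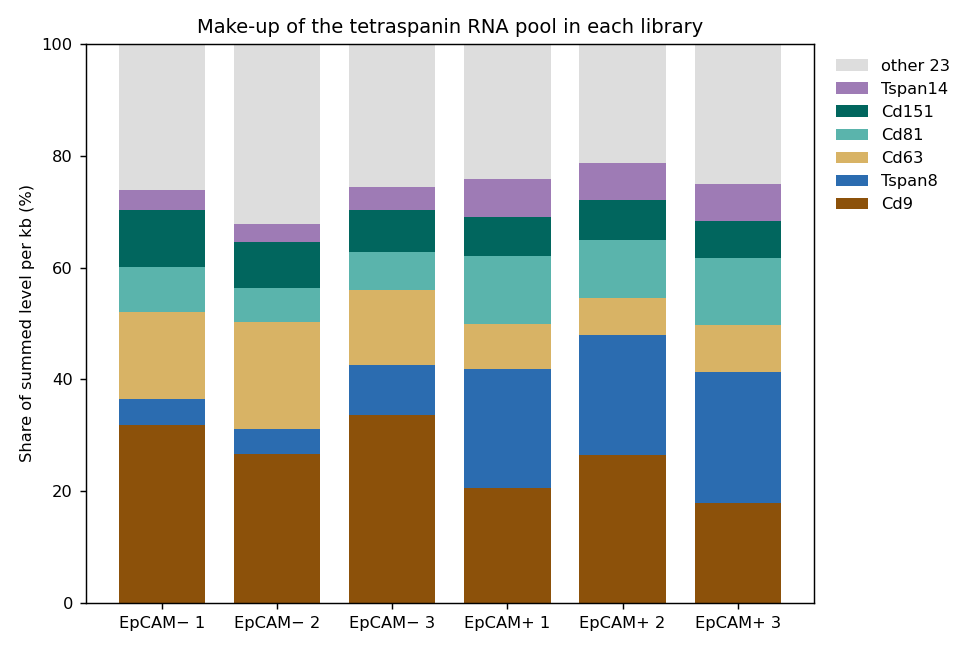
Share (vertical axis, percent) of the summed back-transformed level per kb of the 29 tetraspanin genes held by each of the 6 most abundant genes and by the other 23, in each library, with EpCAM- libraries on the left and EpCAM+ libraries on the right. Tspan8 (blue) takes 4.57% to 8.91% in EpCAM- libraries and 21.2% to 23.6% in EpCAM+ libraries.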

How the data were processed

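RNA of sorted YFP-positive cells was sequenced in 6 libraries. The KAPA mRNA HyperPrep kit served for library preparation, per the labels' protocols. The submitters' processing notes list RSEM, STAR 2.5.2, DESeq2 1.24.0 and the build GRCm38 without role or order. The authors deposited normalised log2 values, with a transform not given in the sources used here, so depth and its precision are unknown.

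Symbols, coordinates and exon lengths came from GENCODE M21 of GRCm38 (25831 of 25978 identifiers matched). Genes averaging 10 or more off the log2 scale were fitted with limma 3.58.1 in R 4.3.3 (prior variance trend, no covariate, no pseudocount, two-sided, Benjamini-Hochberg over 15783 genes, threshold 0.05), and the procedure was tested on simulated data. With 3 libraries against 3, an exact permutation test cannot give a p under 0.1, so none was used. Alternatives were pseudocounts of 0.5, 1 and 5, other filters, scalings, weights and covariates, a minimum fold change and libraries left out.

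The members, partner and marker lists, tests and alternatives were chosen with earlier results of these data known, and the roles were assigned after the values were seen. Named in full were members called with a log2 fold change of at least 1 and the 6 highest per kb. Partner genes named with a call under 2 log2 units were chosen after their values were seen. The partners Gp6, Igsf2 and Upk3a were not analysed here, and 1 allele of the mice and 1 partner gene are not reported here.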

Additional observations from a re-analysis of the deposited data

How the results depend on the processing

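Under the alternatives run, the 6 higher and 8 lower tetraspanins kept their counts at pseudocounts of 0.5, 1 and 5 and with TMM or upper quartile scaling. Leaving out single libraries gave 4 to 6 higher and 8 to 9 lower members, against 2134 to 3325 higher and 2853 to 3975 lower genes overall and 4 to 8 higher and 12 to 18 lower partner genes (5 higher without EpCAM+ replicate 2 and 4 without EpCAM+ replicate 3). Testing against a minimum log2 fold change of 1 left 1 higher and 4 lower tetraspanins, 1 higher and 5 lower partner genes, and 581 higher and 1284 lower genes. Without EpCAM- replicate 3 and EpCAM+ replicate 1 together, 1907 genes and 5 partner genes were higher, and 5 tetraspanins were higher and 8 lower. Signs changed only among named genes that had not passed. Without both libraries their log2 fold changes were 0.014 for Tspan15, 0.12 for Cd151, 0.16 for Upk1a, -0.046 for Cd44 and -0.11 for Itga6. With single libraries left out, fold changes ran between -0.76 and 0.032 for Tspan15, -0.28 and 0.099 for Cd151, -0.11 and 0.017 for Cd82, -0.00026 and 0.34 for Cd9, -1.12 and -0.21 for Upk1a, -0.013 and 0.11 for Cd44 and -0.059 and 0.44 for Itga6. The cause was not tested. Quantile normalisation, which moved the median of all genes to 0.136, gave 4241 higher and 3246 lower genes and 7 higher and 8 lower tetraspanins. The replicate block gave 6 higher and 9 lower tetraspanins, with Tspan2 added at -0.60 (adjusted p = 0.0391, and between 0.0391 and 1 over all alternatives). The labels do not say whether the replicate numbers pair the libraries. Deviations of same-numbered libraries correlated at 0.41, 0.044 and 0.165, and those of differently numbered libraries at -0.337 to 0.23. These few values do not settle whether the libraries are paired. Of 824 alternative values for single genes, 760 kept direction and side of the threshold. Upk1a, Tspan18, Tspan33 and Ndp gave no value at a filter of 50. Values near the floor of the table limit Tspan10, Tspan32, Cd37 and Upk1b. Low values in 1 group also bear on the size of the Tspan11 and Tspan33 fold changes. With a pseudocount of 5 these were 5.49 and -2.19.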
